A study of Mus musculus with 6 samples.

Results

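The genes described here are those of HLA class I antigen presentation, HLA-B, HLA-C, HLA-E, B2M, TAP1, TAP2, TAPBP, NLRC5 and ERAP1, in the prostate cancer cell line 22Rv1. They were chosen by gene symbol, and all 9 symbols were found once among the 58735 genes of the table. Of these, 8 lay on chromosome 6, 15 or 16, to which the choice was limited, and ERAP1, on chromosome 5, was kept as the remaining named gene. The RNA-Seq data hold 3 libraries of the vehicle-treated parental line and 3 of the 22Rv1 BL-B01D1_R subline, which was selected from the parental cells with rising concentrations of BL-B01D1. BL-B01D1 is a bispecific antibody–drug conjugate that binds EGFR and HER3 and carries a topoisomerase I inhibitor as its payload. The subline comes from 1 selection and the sources do not say that the libraries of a group came from separate cultures, so the p-values below measure the spread between these libraries, which may be technical.

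Class I molecules show peptides from inside the cell to CD8+ T cells. Peptides made mainly by the proteasome are carried into the endoplasmic reticulum by the TAP transporter, trimmed by aminopeptidases and loaded onto a heavy chain paired with B2M, with tapasin and other chaperones holding the empty molecule. In many cells, NLRC5 and interferon signaling set the transcription of these genes together, and tumor cells often express them weakly.

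Counts on genes totaled between 13821639 and 17251491 per library, and a count of 3 was worth 0.174 to 0.216 CPM (counts per 1000000 after TMM scaling of the libraries). Resistant and parental libraries were tested against each other with edgeR's quasi-likelihood method, and a gene passed at an FDR of less than 0.05. All 10 markers fixed for prostate epithelium were expressed, KRT8, a luminal keratin, at 513 ± 5.02 CPM (SD, n = 3) in parental and 537 ± 9.47 CPM (SD, n = 3) in resistant cells. Among 10 leukocyte markers, 7 had no library above 3 counts, PTPRC (CD45) included, and their summed level was 1.56 to 2.50 CPM in parental and 1.49 to 2.09 CPM in resistant libraries. In bulk RNA, fewer cells that express a gene and less RNA per cell cannot be told apart.

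Most of the class I presentation genes tested did not pass between the groups, and none had an absolute log2 fold change above 1. The filter on low counts left 8 of the 9 genes for testing, with NLRC5 below it. TAPBP and ERAP1 were higher in resistant cells and TAP2 was lower, and the remaining 5 tested genes, HLA-B, HLA-C, HLA-E, B2M and TAP1, did not pass. That is 3 of 8 genes (37.5%), where 35.5% of all 17142 tested genes passed in either direction, so the share was near the background. With only the genes on chromosome 6, 15 or 16, it was 2 of 7 (28.6%). In all genes, 17.1% passed as higher and 18.4% as lower. The largest of the changes had an absolute log2 fold change of 0.38, and none of the 8 genes had one above 1, against 5.37% of all tested genes that also passed. The median absolute log2 fold change was 0.0964 over the 8 genes and 0.172 over all genes tested. Groups of libraries were fully apart in 3 of the 8 genes, compared with 44.9% of all tested genes.

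**Figure D1:**
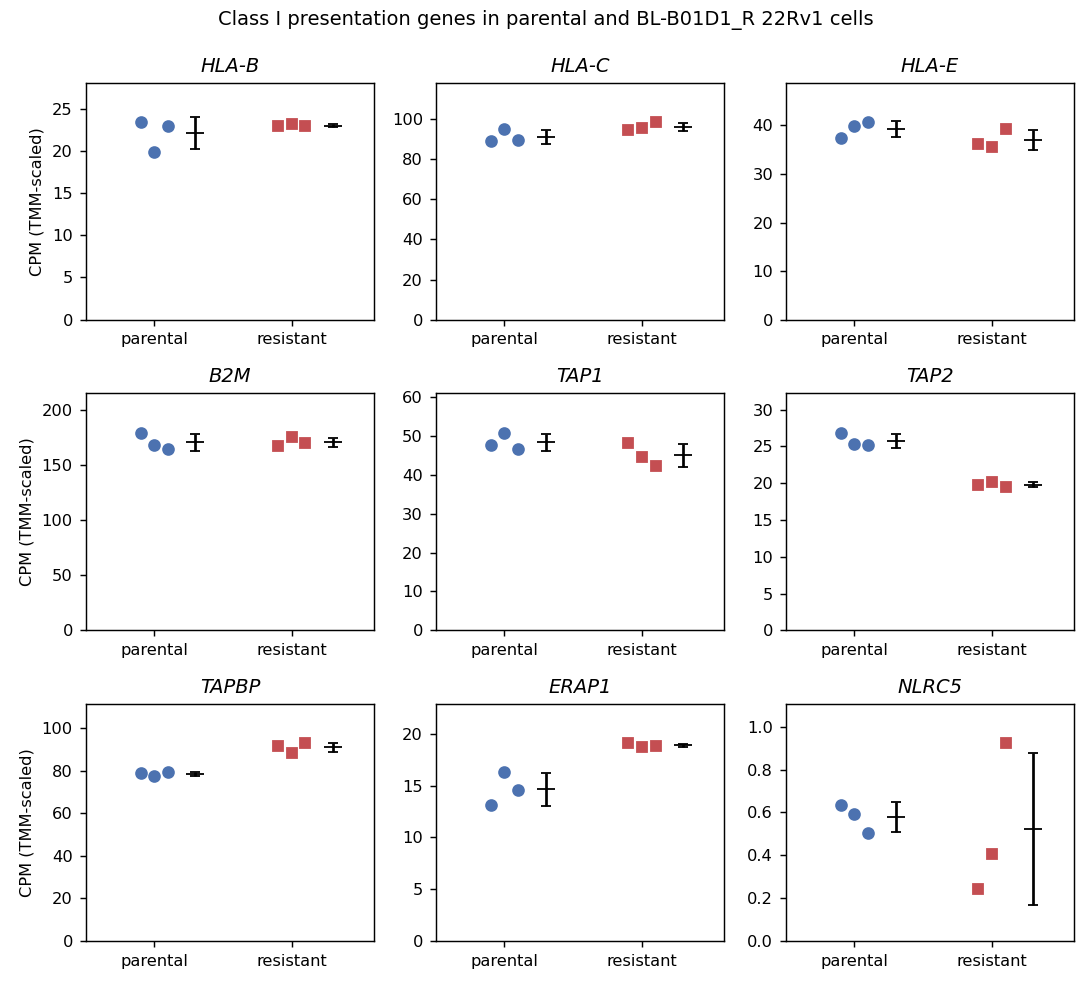
CPM of the class I presentation genes (vertical axes from 0, TMM-scaled) in each parental (circles) and resistant (squares) library, with the mean and SD of 3 libraries beside them. The resistant libraries lie apart from the parental ones for TAP2, TAPBP and ERAP1, and overlap them in the remaining panels.

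The heavy chains hold the peptide groove. HLA-C (ENSG00000204525, chromosome 6 of hg38, 31268749 to 31272130, reverse strand), a classical heavy chain that is also a ligand of killer cell receptors, was at 88.9, 95.0 and 89.4 CPM in parental libraries and 94.4, 95.5 and 98.4 CPM in resistant libraries. Parental library 2 lay inside the resistant range, so the groups overlapped. The log2 fold change was 0.08 (SE 0.043, 95% CI −0.01 to 0.16, FDR 0.171), and did not pass.

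HLA-B (ENSG00000234745, chromosome 6, 31269491 to 31357188, reverse strand), the other classical heavy chain of the set, was at 23.4, 19.9 and 22.9 CPM in parental and 22.9, 23.1 and 22.9 CPM in resistant libraries. Parental library 2 was the lowest and parental library 1 the highest of all 6. The log2 fold change was 0.06 (SE 0.081, 95% CI −0.10 to 0.22, FDR 0.619). The annotated span of HLA-B covers 2640 bases of HLA-C on the same strand, and the classical heavy chains are near-identical in much of their sequence, so the division of reads between them is uncertain.

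HLA-E (ENSG00000204592, chromosome 6, 30489467 to 30494205, forward strand) binds leader peptides of other class I chains and is read by the NKG2A receptor of natural killer cells. It was at 37.5, 39.9 and 40.7 CPM in parental and 36.1, 35.5 and 39.3 CPM in resistant libraries, with overlapping groups. Its log2 fold change was −0.09 (SE 0.065, 95% CI −0.22 to 0.04, FDR 0.319).

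B2M (ENSG00000166710, chromosome 15, 44711487 to 44718877, forward strand), the light chain shared by all class I molecules, had the most counts of the set, 2287 to 3092 per library. Its level was 179, 168 and 164 CPM in parental and 167, 175 and 169 CPM in resistant libraries, and the parental range enclosed the resistant one. The means were 170 ± 7.68 CPM (SD, n = 3) and 171 ± 4.10 CPM (SD, n = 3), and the 95% CI of the log2 fold change ran from −0.07 to 0.07 (FDR 0.999). Of the 8 genes tested, B2M had the narrowest interval.

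The TAP transporter is a dimer of TAP1 and TAP2 that moves peptides into the endoplasmic reticulum. TAP2 (ENSG00000204267, chromosome 6, 32821833 to 32838780, reverse strand) was at 26.9, 25.3 and 25.2 CPM in parental and 19.7, 20.2 and 19.5 CPM in resistant libraries. Every resistant library lay below every parental library. The mean fell by 23.1%, with a log2 fold change of −0.38 (SE 0.078, 95% CI −0.54 to −0.22, FDR 1.3e-04). TAP2 shares 16948 bases with AL669918.1, annotated as protein-coding on the same strand, which had 0 to 1 counts per library. Reads in that stretch could be withheld from TAP2 if counting dropped shared reads, which also bears on its level per length.

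TAP1 (ENSG00000168394, chromosome 6, 32845209 to 32853978, reverse strand) was at 47.7, 50.9 and 46.7 CPM in parental and 48.2, 44.6 and 42.4 CPM in resistant libraries. Resistant library 1 lay above parental libraries 1 and 3. The log2 fold change of −0.11 (SE 0.060, 95% CI −0.23 to 0.02, FDR 0.180) did not pass. Per length, TAP1 was 2.36, 2.67 and 2.47 times TAP2 in parental libraries and 3.24, 2.93 and 2.89 times in resistant libraries (ratio of FPKM, 2.501 ± 0.158 against 3.02 ± 0.193, SD, n = 3). The ratios did not overlap (p = 0.1 in a two-sided exact permutation test, which is the lowest p that groups of 3 can reach). This ratio was chosen after its values were seen. TAP2, its denominator, was already fully apart between groups, so the ratio is not a result separate from the fall of TAP2. All 8770 bases of TAP1 lie within the span annotated for PSMB9 on the opposite strand, and counts of the pair can share reads where counting ignored strand.

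Tapasin, the product of TAPBP (ENSG00000231925, chromosome 6, 33299694 to 33314387, reverse strand), bridges TAP to empty class I molecules and favors the exchange of peptides for ones that bind well. TAPBP was at 79.0, 77.4 and 79.2 CPM in parental and 91.6, 88.5 and 92.9 CPM in resistant libraries, and every resistant library was higher. The log2 fold change was 0.21 (SE 0.044, 95% CI 0.12 to 0.30, FDR 1.27e-04), an increase of the mean by 15.9%.

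ERAP1 (ENSG00000164307, chromosome 5, 96760810 to 96808100, reverse strand), an aminopeptidase that trims peptides in the endoplasmic reticulum, was at 13.1, 16.3 and 14.6 CPM in parental and 19.1, 18.7 and 18.8 CPM in resistant libraries. The resistant libraries lay close together above all parental ones. The mean rose by 28.8%, with a log2 fold change of 0.37 (SE 0.094, 95% CI 0.18 to 0.56, FDR 0.00185). ERAP1 shares 18786 bases with CAST on the opposite strand, which had 1814 to 2420 counts per library against 203 to 317 for ERAP1, so reads from CAST could enter or be withheld from this count if strand was not used.

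NLRC5 (ENSG00000140853, chromosome 16, 56989485 to 57083531, forward strand), the transactivator of class I genes, was barely expressed. It had 11, 10 and 7 counts in parental and 4, 6 and 15 counts in resistant libraries, or 0.578 ± 0.068 CPM and 0.523 ± 0.355 CPM (SD, n = 3). Resistant library 3 was the highest and resistant library 1 the lowest of all 6. Without the filter on low counts, the log2 fold change over all 6 libraries was −0.14 (FDR 0.894 by edgeR). With the filter, NLRC5 was tested only in some fits that left out 1 library, and its log2 fold change was −0.85 (FDR 0.336) without resistant library 3 and 0.21 (FDR 0.818) without resistant library 1. No difference was detectable at this depth.

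Levels of different genes were compared per length, as FPKM (CPM per kilobase of the length listed by the authors). HLA-C stood highest, at 36.3 ± 1.35 FPKM (SD, n = 3) in parental and 38.3 ± 0.823 FPKM (SD, n = 3) in resistant cells. It was followed by B2M at 28.0 ± 1.26 and 28.1 ± 0.675 FPKM, TAPBP at 15.5 ± 0.193 and 18.0 ± 0.441 FPKM, and HLA-E at 13.2 ± 0.554 and 12.4 ± 0.679 FPKM. TAP1, HLA-B, TAP2 and ERAP1 came next, from 10.1 down to 1.84 FPKM in parental cells, and NLRC5 was last at 0.0467 FPKM. The order of the 9 genes was the same in both groups, and no neighbors in it overlapped within a group. B2M is listed with a length of 6079 bases, and its FPKM depends on that length. Reads of the highly polymorphic heavy chains were mapped to the hg38 alleles, so levels between heavy chains also depend on how well the alleles of 22Rv1 map there.

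**Figure D2:**
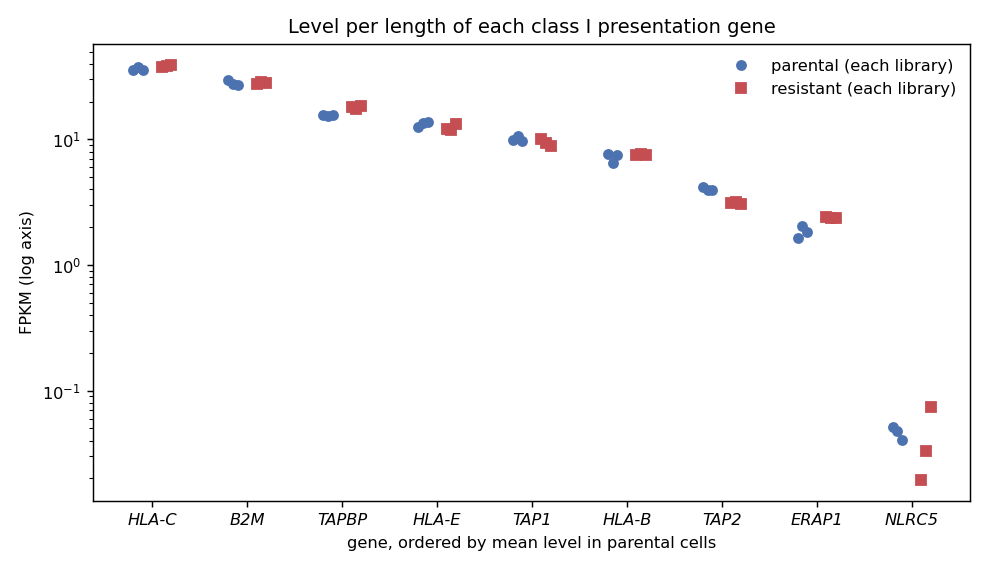
FPKM of each class I presentation gene on a log axis, with 1 point per library (circles parental, squares resistant) and genes ordered by their mean in parental cells. HLA-C and B2M lead in both groups, and NLRC5 stays under 0.1 FPKM in all 6 libraries.

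Of the summed FPKM of HLA-B, HLA-C and HLA-E, HLA-C made up 64.0% ± 1.44 in parental and 65.8% ± 0.337 in resistant libraries (SD, n = 3). The summed FPKM of these heavy chains overlapped between groups, at 56.8 ± 1.04 and 58.3 ± 1.46 (SD, n = 3), and so did B2M per heavy chain FPKM, at 0.494 ± 0.030 and 0.481 ± 0.018 (SD, n = 3). Among the nonclassical heavy chains, HLA-F had at most 3 counts in any library, and HLA-G had none.

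Other heavy chains and class I-like genes formed a list of 10, of which 7 were tested, and 1 passed as higher and 3 as lower (57.1%, against 35.5% of all tested genes). The median absolute log2 fold change of these 7 genes was 0.407, larger than the 0.172 over all tested genes. MR1, which presents microbial vitamin B metabolites to MAIT cells, was at 10.6 ± 0.576 CPM in parental and 23.2 ± 1.46 CPM in resistant cells (SD, n = 3; log2 fold change 1.12, SE 0.094, FDR 4.02e-13). It was the only gene of the class I lists that passed with an absolute log2 fold change above 1. MICB, a stress-induced ligand of the NKG2D receptor, was lower (log2 fold change −0.51, FDR 2.16e-04), whereas its relative MICA had a log2 fold change of 0.05 (95% CI −0.14 to 0.24, FDR 0.725). FCGRT, the heavy chain of the neonatal Fc receptor, which also pairs with B2M, passed at −0.41 (FDR 0.0342), and lost that call with the omission of any of 4 libraries, parental 1 and 3 and resistant 1 and 3, where the FDR reached up to 0.0976.

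Peptide supply and loading showed changes in both directions. Of 23 genes, all tested, 9 were higher, 7 were lower and 7 did not pass (69.6% passed, against 35.5% of all tested genes). Their median log2 fold change was 0.01, against 0.00379 over all tested genes. The median absolute log2 fold change was 0.158, against 0.172 over all tested genes, so the changes were not larger than the background. With many counts, a gene can pass at a small change, but the part of read depth in this share was not tested. The subunits that turn the proteasome into the immunoproteasome, which cuts peptides suited to class I, were weakly expressed and did not move alike. PSMB9 had 72, 84 and 70 counts in parental and 48, 45 and 50 in resistant libraries (log2 fold change −0.65, SE 0.19, FDR 0.00598). It shares 8770 bases with TAP1 on the opposite strand, which had 650 to 856 counts per library. Reads from TAP1 could therefore enter or be withheld from the PSMB9 count if strand was not used. PSMB8 had 74, 81 and 56 against 51, 59 and 64 counts (log2 fold change −0.26, 95% CI −0.64 to 0.12, FDR 0.298). Scaled for depth, every resistant library of PSMB8 lay below every parental one, at 4.28, 4.81 and 4.03 against 3.07, 4.00 and 3.94 CPM, but PSMB8 did not pass. PSMB10 was higher (log2 fold change 0.68, SE 0.25, FDR 0.0261), from 27, 42 and 28 to 43, 44 and 68 counts, a call that was lost without parental library 1, parental library 3 or resistant library 3 (FDR up to 0.225).

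The general chaperones of the loading complex were abundant and changed little. CALR (calreticulin) rose from 1031 ± 14.4 to 1150 ± 6.50 CPM (SD, n = 3; log2 fold change 0.16, FDR 4.47e-07). CANX (calnexin) fell by 0.12 on the log2 scale (FDR 3.43e-05), and PDIA3 (ERp57), the disulfide partner of tapasin, fell by 0.15 (FDR 2.24e-05). Of the Sec61 translocon, through which new heavy chains enter the endoplasmic reticulum, SEC61A1 fell by 0.52 (SE 0.030, FDR 2.41e-18) and SEC61B by 0.46 (SE 0.052, FDR 1.39e-09).

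**Figure D3:**
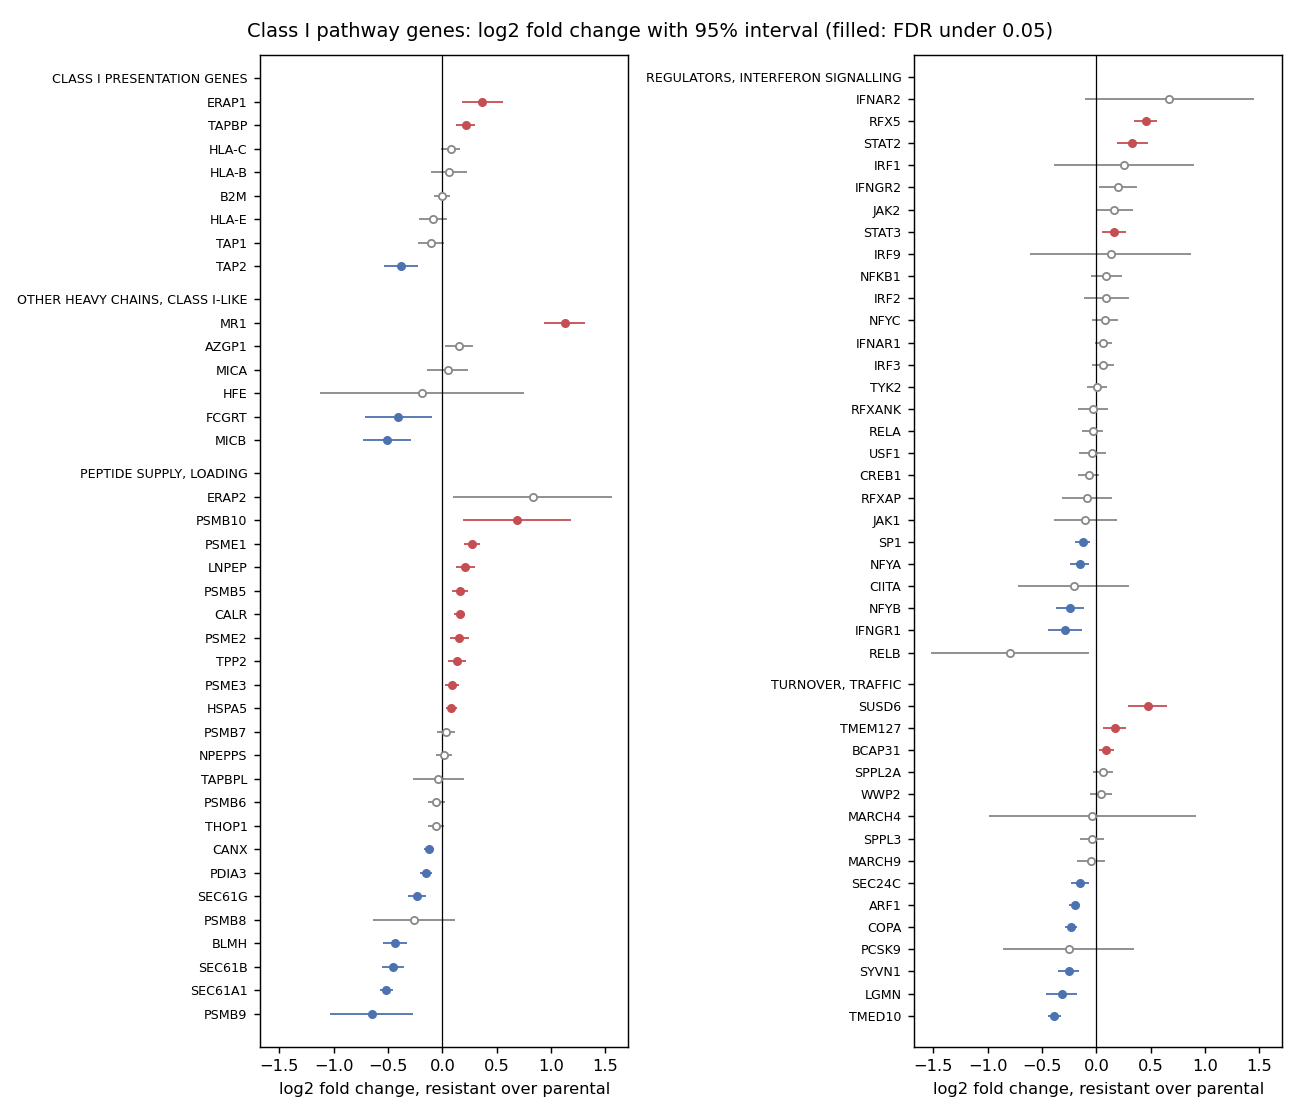
Log2 fold change (resistant over parental, horizontal axis) with its 95% interval for each tested class I presentation gene and for tested genes of 4 class I pathway lists. Filled points passed an FDR of less than 0.05 (red higher, blue lower), and MR1, at 1.12, is the only filled point beyond 1 in either direction.

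Of 29 transcriptional regulators and interferon signaling genes, 27 were tested, 4 were higher, 4 were lower and 19 did not pass (29.6% passed, against 35.5% of all tested genes, median log2 fold change 0.06). RFX5, a subunit of the RFX complex that NLRC5 needs at class I promoters, rose from 54.5 ± 2.84 to 74.5 ± 1.12 CPM (SD, n = 3; log2 fold change 0.45, SE 0.051, FDR 1.32e-09). The interferon signal transducer STAT2 was higher, with a log2 fold change of 0.33 (FDR 2.55e-04), and IFNGR1, the ligand-binding chain of the interferon gamma receptor, was lower at −0.29 (FDR 0.00285). IRF1 and IRF2, which bind interferon-responsive elements of class I promoters, had log2 fold changes of 0.25 (95% CI −0.39 to 0.90, FDR 0.589) and 0.09 (95% CI −0.12 to 0.30, FDR 0.538).

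Among 16 genes of class I turnover and traffic, all tested, 4 were higher and 6 lower (62.5% passed, against 35.5% of all tested genes). Their median absolute log2 fold change was 0.185, near the 0.172 of all tested genes. SUSD6, an adaptor that directs class I molecules to degradation, rose from 16.4 ± 1.87 to 22.6 ± 0.965 CPM (SD, n = 3; log2 fold change 0.47, SE 0.089, FDR 3.87e-05). TMED10, a cargo receptor between the endoplasmic reticulum and the Golgi, fell by 0.39 (SE 0.029, FDR 2.31e-14), and the protease gene LGMN (legumain) fell by 0.32 (FDR 3.18e-04).

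In the MHC region of chromosome 6, taken as 29 to 34 Mb of hg38, 105 protein-coding genes outside the set were tested. Of these, 17 were higher and 22 were lower (37.1%, against 35.5% of all tested genes), with a median log2 fold change of −0.03. The largest falls were in HLA-DQB1, a class II chain, at −2.03 (FDR 5.50e-06), and GABBR1, a GABA receptor subunit, at −1.92 (FDR 4.31e-05). HLA-DQB1 had 114, 27 and 51 counts in parental and 12, 13 and 21 in resistant libraries, and its log2 fold change was −1.41 without parental library 1 (FDR 0.00117). The largest rises were in C2, a complement component, at 1.76 (FDR 0.00643) from 5, 6 and 1 counts to 14, 11 and 16, a call lost without parental library 3 (FDR 0.0549), and in ATP6V1G2, a vacuolar ATPase subunit, at 1.71 (FDR 4.41e-07). HLA-DMB, a class II peptide editor, was higher at 1.43 (FDR 1.44e-05), from 22, 21 and 16 to 53, 52 and 53 counts. Of 12 class II genes, 6 had no library above 3 counts.

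**Figure D4:**
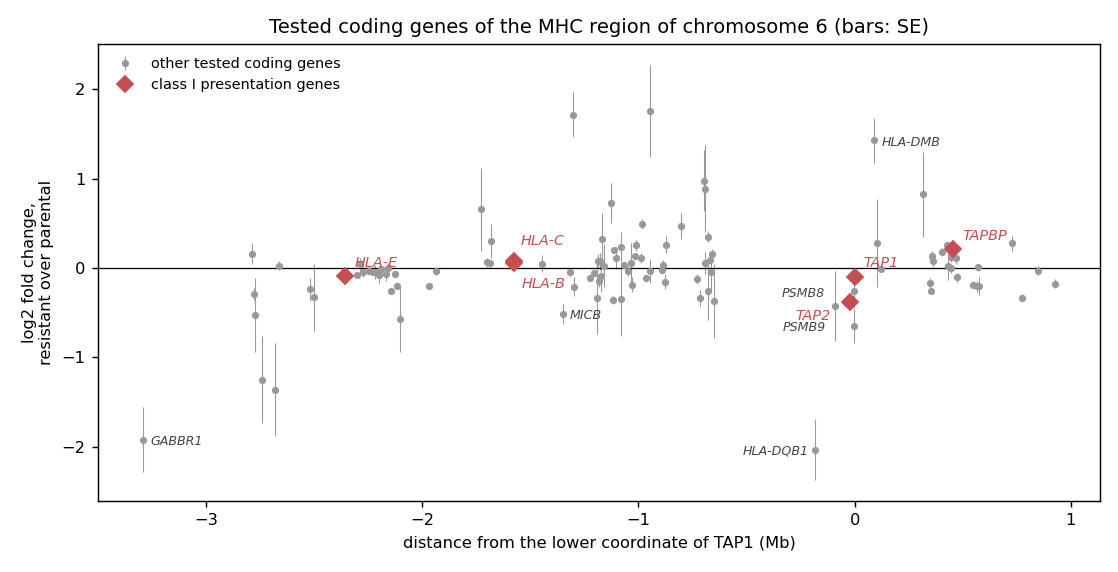
Log2 fold change (resistant over parental, bars SE) of tested protein-coding genes in the MHC region against their distance in Mb from the lower coordinate of TAP1. The class I presentation genes (red diamonds) lie between −0.38 and 0.21, within a spread of neighbors that runs from −2.03 for HLA-DQB1 to 1.76 for C2.

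HLA-B was also compared with all tested genes by Pearson's r of log2 CPM over the 6 libraries, as a description of likeness. The closest were LSM12P1 (0.990), RPLP0P2 (0.987), AC108704.2 (0.984), C5orf15 (0.983) and MATN1-AS1 (0.979), none of which passed the test between groups (FDR 0.120 to 0.642). None of the class I presentation genes was among them, and the highest r with HLA-B in the set was 0.453, for TAPBP. These values share the 6 libraries and their depth. HLA-B lay at 22.9 to 23.4 CPM in every library except parental library 2, at 19.9 CPM, so r rests largely on that library. RPLP0P2, AC108704.2 and MATN1-AS1 were also weakly expressed, at a mean log2 CPM of 0.33 to 0.68. Whether HLA-B varies together with the other class I presentation genes cannot be read from these values.

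Fibroblast and endothelial markers had 8 genes, of which 4 had no library above 3 counts. These were COL1A2, PECAM1, VWF and CDH5, the last at 0 in all libraries. PDGFRB had 1 to 6 counts and DCN 11 to 29. The summed level of all 8 was 111 to 114 CPM in parental and 39.0 to 43.8 CPM in resistant libraries, mainly LUM, at 95.8 ± 2.96 and 28.7 ± 2.40 CPM (SD, n = 3; log2 fold change −1.74, FDR 1.11e-26). COL1A1 passed at −0.28 (FDR 0.0348), and lost that call without parental library 2, resistant library 1 or resistant library 2 (FDR up to 0.175). The part of these marker genes in the values of TAP2, TAPBP and ERAP1 was not tested. Prostate epithelial markers passed in 9 of 10 genes (90.0%, against 35.5% of all tested genes), 5 higher and 4 lower. The log2 fold changes were 0.91 in KLK3, 0.70 in KLK2 and −0.48 in HOXB13. The median absolute log2 fold change of the list was 0.208, against 0.172 over all tested genes. The calls of KRT8 (0.07) and EPCAM (−0.13) depended on the processing, as given below.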

How the data were processed

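RNA-Seq libraries of parental 22Rv1 cells and of the BL-B01D1_R subline were analysed, 3 in each group. The authors mapped reads to hg38 with HISAT2 2.0.5, counted them per gene with featureCounts 1.5.0-p3 and deposited raw counts, with a gene length in bases as another quantity. The strand setting, the handling of reads in overlapping genes and the annotation release were not given in the sources used here. Although mouse is given as the organism in the labels, the gene identifiers are human and were treated so. No column of per-sample values was left unused (0 columns).

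Genes were filtered with filterByExpr, scaled with TMM and tested by quasi-likelihood in edgeR 4.0.16 (R 4.3.3), with Benjamini-Hochberg adjustment over 17142 genes. CPM and FPKM were computed here from the deposited counts, TMM-scaled library sizes and listed lengths. Alternatives were limma-voom (limma 3.58.1), DESeq2 (1.42.0), other scalings and filters, protein-coding genes only, a fold-change threshold, the replicate block and each library left out. Scripts were tested on simulated data.

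The members and lists were chosen with earlier results of these data known. The genes named are all members, the called list genes with the largest changes (at most 4 a list), and PSMB8, PSMB9, PSMB10, RFX5, IRF1, IRF2, HLA-F, CALR, CANX and PDIA3 whatever their values. A few genes selected in this way are not reported here. Other names were chosen after their values were seen, as was the ratio of TAP1 to TAP2.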

Additional observations from a re-analysis of the deposited data

How the results depend on the processing

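The calls of TAP2, TAPBP and ERAP1, and the lack of a call for HLA-B, HLA-C, HLA-E, B2M and TAP1, held under all alternatives run and with each library left out, except that a threshold on the fold change as well (absolute log2 fold change above 1) left 0 of these genes higher and 0 lower. That threshold also left 1 gene higher and 0 lower in the class I pathway lists, from 18 and 20, and 434 and 487 among all tested genes, from 2928 and 3153. B2M, near 0, changed sign with limma-voom (−0.0011), DESeq2 (−0.00086) and library size alone (−0.016), and ranged from −0.0231 to 0.0377 with a library left out. HLA-B ranged from −0.013 (without parental library 2) to 0.11. With a library left out, ERAP1 ranged from 0.29 to 0.45, TAP2 from −0.40 to −0.35 and TAPBP from 0.20 to 0.23. The cause of these changes was not tested. Among the other genes named, PSMB10 and C2 also lost their calls with DESeq2 (FDR 0.136 and 0.0615), and FCGRT and COL1A1 did with DESeq2 and without a filter (FDR up to 0.152 and 0.160). KRT8, which passed at an FDR of 0.0423, lost its call without a filter, with library size alone (FDR up to 0.126) and without any 1 library other than resistant library 1 (FDR up to 0.172). EPCAM passed at an FDR of 0.0437. It lost its call with DESeq2, without a filter, with protein-coding genes only and with the replicate block (FDR up to 0.163). The call was also lost without parental library 1, resistant library 1 or resistant library 3 (FDR up to 0.270). Depth limits what can be said of NLRC5 and the immunoproteasome subunits, for which no library exceeded 84 counts.

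Same-numbered libraries did not deviate together (r of −0.0081, −0.0196 and −0.0157 across genes). No pairing by number was seen in these values, and the libraries were treated as unpaired. With the replicate block, 2 of the class I presentation genes were higher and 1 lower, as without it, and no call among them changed.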
